A study of Mus musculus with 6 samples.

Results

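The 10 genes described here encode the MHC class II molecules of the mouse, the proteins that load them with peptide and the factor that switches them on. They were taken by name from the tables of 6 RNA-seq libraries, and each of the 10 matched 1 of 23850 gene entries. B cells turned into germinal centre-like cells in culture received CHIR99021 (3 libraries) or its solvent DMSO (3 libraries). CHIR99021 blocks GSK3, a serine/threonine kinase. The mice were C57BL/6J and wild type in both groups. Before treatment, naive follicular B cells of either group spent 4 days with 1 ng/ml IL-4 over a feeder layer expressing CD40L. Treatment lasted 36 h, over the same kind of feeder and with 10 ng/ml IL-21. The labels state a dose of 3 uM for CHIR99021 and repeat that figure for DMSO. The cells were purified before RNA extraction by a method that the labels do not describe, and the series calls the samples biological triplicates. Cells driven by CD40L, IL-4 and IL-21 on a dish are a model of the germinal centre and lack its T cells and follicular dendritic cells.

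A classical class II molecule pairs an alpha with a beta chain and shows peptides from endocytosed antigen to CD4 T cells. The invariant chain Cd74 binds new class II in the endoplasmic reticulum, fills its groove and guides it to late endosomes, where proteases trim the chain. H2-M, the mouse DM molecule, then exchanges the remaining fragment for antigen peptide, and H2-O, the mouse DO molecule, is an inhibitor of DM found mainly in B cells. Transcription of the class II genes is driven in large part by Ciita, a coactivator that does not bind DNA itself. Ciita docks on a complex of RFX, CREB and NF-Y proteins held at the X and Y boxes of class II promoters. In germinal centre B cells, class II presents captured antigen to follicular helper T cells, and the genes are switched off when B cells become plasma cells.

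The promoter stretches that carry these boxes are shown because the comparison with Ciita turns on genes that share them. Promoter windows of 250 bases before to 50 bases after the gene start were read from RefSeq on build GRCm38.p6 for 7 of the 10 members. H2-Ab1, Cd74 and Ciita had no entry. Each line gives 57 bases on the coding strand, 5′ to 3′, and capitals mark the X-box core GNAAC and the Y box TGATTGG. The letters of both motifs were set after the windows had been read.
H2-Aa: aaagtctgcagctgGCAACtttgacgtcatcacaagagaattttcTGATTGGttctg
H2-Eb1: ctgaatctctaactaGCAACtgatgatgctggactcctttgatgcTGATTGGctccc
H2-DMb1: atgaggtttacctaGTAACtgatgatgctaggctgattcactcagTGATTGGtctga
H2-DMb2: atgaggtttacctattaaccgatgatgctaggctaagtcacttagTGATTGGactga
H2-Oa: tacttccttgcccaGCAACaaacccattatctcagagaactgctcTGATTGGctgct
H2-Ob: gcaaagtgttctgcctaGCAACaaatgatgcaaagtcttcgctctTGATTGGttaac

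All of these lie on chromosome 17. The stretch of H2-Aa is chr17:34287862-34287918 on the minus strand. On the plus strand are those of H2-Eb1 (chr17:34305761-34305817), H2-DMb1 (chr17:34153083-34153139), H2-DMb2 (chr17:34145112-34145168), H2-Oa (chr17:34092289-34092345) and H2-Ob (chr17:34238801-34238857). The Y box was present in 6 of the 7 members with a window, against 7.82% of 32851 RefSeq windows searched on both strands. The pair of boxes, in this order and with 15 to 35 bases between them, was present in 5 of the 7, against 0.569% of windows. Members are counted by gene here and the background by window. Because the letters were set after the windows had been read, these shares describe the members and are not a test. The X-box core alone is too short to set genes apart, since 84.8% of windows hold it. The window of H2-DMb2 holds both motifs but not as a pair at this distance, and neither window of H2-DMa held the Y box, which says only that these letters are not in these windows.

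All 10 members fell with CHIR99021, by 1.48-fold to 3.35-fold on the ratio of mean FPKM (fragments scaled to transcript length and library total, the authors' gene value). By this ratio H2-Oa, a chain of the inhibitor of peptide loading, lay at the high end and the classical beta chain gene H2-Ab1 at the low end. Of 10096 tested genes, 21.4% were called, 13.3% lower and 8.13% higher, at an adjusted p under 0.05 in limma's test on log2(FPKM + 1). The share of the calls that were higher was 37.9% with FPKM as deposited, and 54.8%, 51.2%, 45.7% and 27.0% with upper-quartile, quantile, median-ratio and total-FPKM scaling. The members had a median log2 change of -0.89, against -0.04 over all tested genes. Levels of CHIR99021 and DMSO libraries did not overlap for any of the 10, while 40.1% of tested genes did not overlap in either direction and 23.1% were lower in CHIR99021 without overlap. The lowest Cufflinks lower limit of the DMSO libraries lay above the highest upper limit of the CHIR99021 libraries for all 10, as it did for 7.76% of tested genes, though these limits cover the uncertainty of 1 library at a time. In bulk RNA, fewer cells with class II transcripts and fewer transcripts per cell cannot be told apart. The p-values of limma rest on the spread between the 3 samples of a group, with information on variance shared across genes. Where the replicate number is fitted as a block, they rest on the spread left after differences between replicate numbers are removed.

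**Figure D1:**
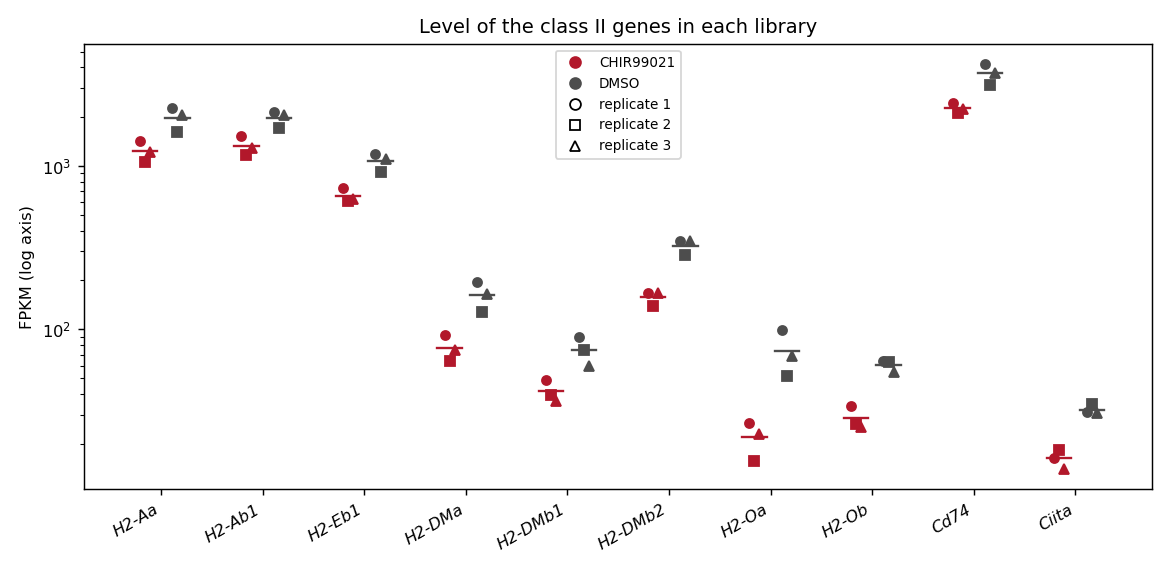
FPKM of the 10 class II genes in each of the 6 libraries on a log axis, with CHIR99021 (red) left of DMSO (grey), a symbol for each replicate number and a line at the group mean. In each gene the 3 CHIR99021 libraries lie below the 3 DMSO libraries, from Cd74 with means of 2251 and 3674 FPKM to Ciita with means of 16.2 and 32.3 FPKM.

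The transactivator Ciita (chromosome 16, 10480072 to 10527564 on mm10) had 16.4, 18.3 and 13.9 FPKM in CHIR99021 libraries 1, 2 and 3, against 31.3, 34.8 and 30.7 FPKM in DMSO libraries 1, 2 and 3. The groups were far apart compared with the spread inside each, at 16.2 ± 2.17 and 32.3 ± 2.25 FPKM (mean ± SD, n = 3 each). Ciita was 1.99-fold lower (log2 change -0.96 ± 0.12 SE, limma adjusted p = 0.00161). Its table entry carries 3 transcription start sites, and the value is their sum, so use of separate Ciita promoters is not resolved here.

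The classical genes encode the chains of I-A (H2-Aa and H2-Ab1) and the beta chain of I-E (H2-Eb1), and all 3 fell. H2-Aa (chromosome 17, 34282751 to 34287771) had 1418, 1053 and 1220.3 FPKM in CHIR99021 libraries 1, 2 and 3, against 2249, 1617 and 2052 FPKM in DMSO. H2-Ab1 (chromosome 17, 34263227 to 34269418) had 1528, 1167 and 1287 FPKM in the CHIR99021 libraries, against 2125, 1708 and 2041 FPKM in DMSO. In both genes replicate 2 was the lowest library of its group, and the highest CHIR99021 library stayed below the lowest DMSO library. H2-Eb1 (chromosome 17, 34305867 to 34316674) had 733, 608 and 628 FPKM with CHIR99021, against 1177, 919.95 and 1095 FPKM with DMSO, with the same low replicate 2. The falls were 1.60-fold for H2-Aa (log2 change -0.68 ± 0.16 SE, limma adjusted p = 0.0244), 1.48-fold for H2-Ab1 (-0.56 ± 0.14 SE, 0.0282) and 1.62-fold for H2-Eb1 (-0.69 ± 0.13 SE, 0.00819).

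Over 16 alternative settings, the calls of H2-Aa and H2-Ab1 were lost most often of the 10. Both genes were called with the replicate number as a block (limma adjusted p = 0.000180 for H2-Aa and 0.000441 for H2-Ab1). The settings in which a call was lost were all fitted without that block, as was every other alternative. Among those that kept both calls was quantile normalization (limma adjusted p = 0.000279 for H2-Aa and 0.000400 for H2-Ab1). The cause of the lost calls was not tested. H2-Aa was not called in 6 of 16 alternative settings (limma adjusted p = 0.000180 to 0.0919 over all of them), and H2-Ab1 in 7 of 16 (0.000400 to 0.113). For H2-Ab1 alone the call also ended with median-ratio scaling (0.0576). For both it ended without the limit on level (0.0679 for H2-Aa and 0.0787 for H2-Ab1), with upper-quartile scaling (0.0575 and 0.0807) and without CHIR99021 replicate 2 (0.0756 for H2-Aa and 0.0895 for H2-Ab1), CHIR99021 replicate 3 (0.0919 and 0.113), DMSO replicate 1 (0.0713 and 0.0842) or DMSO replicate 3 (0.0819 and 0.0920). Mice of the C57BL/6 strain lack a working I-E alpha chain, so H2-Eb1 makes no surface I-E molecule there. The entry for that alpha gene, H2-Ea-ps, was listed at 0 to 0.655 FPKM in the CHIR99021 libraries and 0 to 0.530 FPKM in the DMSO libraries, and lay below the limit of a mean of 1 FPKM for testing. H2-Eb2, a further I-E beta-like gene whose promoter window also holds the box pair, had 17.2 ± 2.62 and 23.2 ± 3.66 FPKM in CHIR99021 and DMSO (n = 3 each) and did not pass the test (limma adjusted p = 0.0850, or 0.00284 with the replicate number as a block).

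Cd74 was the most abundant member, per length of transcript, in each library. It had 2429, 2107 and 2218 FPKM in the CHIR99021 libraries, against 4184, 3134 and 3705 FPKM in the DMSO libraries. Among all gene entries it ranked 54th, 46th and 61st by FPKM in CHIR99021 libraries 1, 2 and 3, and 16th, 20th and 22nd in DMSO libraries 1, 2 and 3. Cd74 (chromosome 18, 60803849 to 60812652) was 1.63-fold lower (log2 change -0.70 ± 0.14 SE, limma adjusted p = 0.0130). This call ended without DMSO replicate 3 (0.0511), without CHIR99021 replicate 3 (0.0683) and without the limit on level (0.0576), within a range of 0.000246 to 0.0683 over 16 settings.

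The DM genes encode the alpha chain (H2-DMa) and a pair of beta chains (H2-DMb1 and H2-DMb2) of the molecule that catalyses peptide exchange. H2-DMa (chromosome 17, 34122832 to 34139101) had 91.7, 63.7 and 74.8 FPKM in CHIR99021 libraries 1, 2 and 3, against 195, 128 and 164 FPKM in DMSO. H2-DMb2 (chromosome 17, 34145416 to 34151095) had 167, 139.5 and 167 FPKM with CHIR99021, against 344, 286 and 346 FPKM with DMSO. Both were about halved, with wide gaps between the groups, at 2.12-fold lower for H2-DMa (log2 change -1.07 ± 0.18 SE, limma adjusted p = 0.00595) and 2.06-fold lower for H2-DMb2 (-1.04 ± 0.11 SE, 0.00115). H2-DMb1 (chromosome 17, 34153191 to 34160229) had 49.1, 39.6 and 36.5 FPKM with CHIR99021, against 90.3, 74.9 and 59.9 FPKM with DMSO. It was 1.80-fold lower (log2 change -0.82 ± 0.17 SE, limma adjusted p = 0.0122), and its call ended only without CHIR99021 replicate 3 (0.0550, in a range of 0.000218 to 0.0550 over 16 settings). The beta genes are close copies. In the longest coding transcripts of GENCODE M21, 26.6% of the 50-base stretches of H2-DMb1 also occur in H2-DMb2, and 25.2% the other way round, so the split of reads between them is uncertain. No other pair of members shared such a stretch.

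The DO genes, H2-Oa for the alpha and H2-Ob for the beta chain, both fell, by 3.35-fold and 2.13-fold on the ratio of means. H2-Oa (chromosome 17, 34092379 to 34095234) had 26.9, 15.7 and 22.9 FPKM in the CHIR99021 libraries, against 99.0, 52.0 and 68.4 FPKM in the DMSO libraries. The DMSO libraries were widely spread, but the lowest of them was still above the highest CHIR99021 library. H2-Oa was 3.35-fold lower (log2 change -1.68 ± 0.26 SE, limma adjusted p = 0.00421), and only 0.446% of tested genes had a more negative log2 change. H2-Ob (chromosome 17, 34238905 to 34245908) had 34.1, 26.5 and 25.2 FPKM with CHIR99021, against 64.2, 63.5 and 54.8 FPKM with DMSO. It was 2.13-fold lower (log2 change -1.07 ± 0.13 SE, limma adjusted p = 0.00156). H2-Oa overlaps the antisense gene BC051537 on chromosome 17, whose entry had at most 0.181 FPKM with CHIR99021 and 0.602 FPKM with DMSO. Since no source used here gives the strand setting of the counting, reads of H2-Oa and its antisense partner cannot be told apart with certainty. The Cufflinks limits of H2-Oa reached 20.0% of its value on either side, the widest of the members, against at most 11.5% for the other members.

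By mean level, the order in CHIR99021 libraries was Cd74, H2-Ab1, H2-Aa, H2-Eb1, H2-DMb2, H2-DMa, H2-DMb1, H2-Ob, H2-Oa and Ciita. In DMSO libraries it was Cd74, H2-Aa, H2-Ab1, H2-Eb1, H2-DMb2, H2-DMa, H2-DMb1, H2-Oa, H2-Ob and Ciita. The neighbours H2-Aa and H2-Ab1, at 1230.3 ± 183 and 1327 ± 184 FPKM with CHIR99021 and 1973 ± 323 and 1958 ± 221 FPKM with DMSO (SD, n = 3 each), differed by less than their spread in both groups. So did H2-Oa and H2-Ob in DMSO libraries, at 73.1 ± 23.9 and 60.8 ± 5.22 FPKM, and H2-Oa and H2-DMb1, at 73.1 ± 23.9 and 75.0 ± 15.2 FPKM. In the CHIR99021 libraries H2-Oa and Ciita, at 21.8 ± 5.66 and 16.2 ± 2.17 FPKM, differed by less than the SD of H2-Oa, and in replicate 2 Ciita was the higher, with 18.3 FPKM against 15.7 FPKM for H2-Oa. Together the 10 members made up 0.925% to 1.05% of the summed FPKM of the CHIR99021 libraries, against 1.52% to 1.71% in the DMSO libraries.

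The libraries vary by replicate number, and the members show it clearly, as replicate 2 was the lowest library of both groups for the classical genes, Cd74, H2-DMa, H2-DMb2 and H2-Oa. Within each number, the CHIR99021 level over the DMSO level was below 1 in 30 of 30 member ratios, from 0.271 for H2-Oa to 0.719 for H2-Ab1, both in replicate 1. H2-DMb2 was the most even, at 0.485, 0.489 and 0.483 in replicates 1, 2 and 3. H2-Aa stood at 0.630, 0.651 and 0.595, Cd74 at 0.581, 0.672 and 0.599, and Ciita at 0.524, 0.524 and 0.454. H2-Oa lay below Ciita in every replicate, at 0.271, 0.302 and 0.335. The 3 classical genes, Cd74 and H2-DMb1 lay above Ciita in every replicate, with H2-DMb1 at 0.544, 0.529 and 0.610. With the replicate number as a block, 10 of 10 members were called lower (limma adjusted p = 7.53e-05 to 0.000441), where 24.4% of all tested genes were called lower and 42.8% in either direction.

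**Figure D2:**
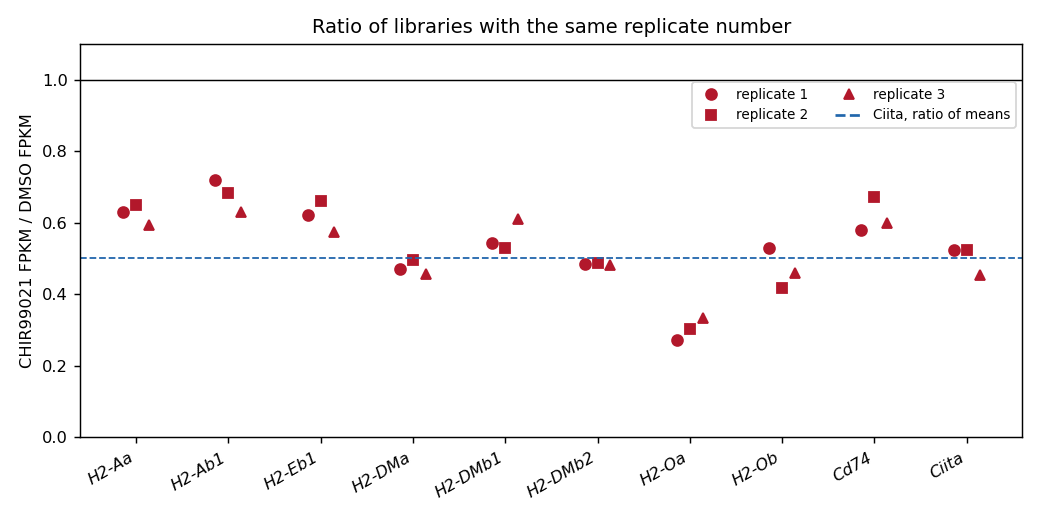
Ratio of the CHIR99021 FPKM to the DMSO FPKM of the library with the same replicate number, for each class II gene and replicate (symbols), with a dashed line at the Ciita ratio of means (0.502) and a solid line at 1. The classical genes, Cd74 and H2-DMb1 lie above the dashed line in every replicate, and H2-Oa lies below it, between 0.271 and 0.335.

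The question of whether the target genes changed as much as Ciita was asked of each member by fitting its log2 level minus that of Ciita in the same library, across all tested genes. The log2 changes of the classical genes and Cd74 lay 0.26 to 0.39 above that of Ciita, and that of H2-Oa lay below it at a difference of -0.73. Leaving out 1 library moved these differences to 0.0880 to 0.47 for H2-Aa, 0.24 to 0.57 for H2-Ab1, 0.11 to 0.40 for H2-Eb1 and 0.0939 to 0.39 for Cd74. In each of these genes the low end came without DMSO replicate 2 and the high end without CHIR99021 replicate 2. Quantile normalization gave 0.0798 for H2-Aa and 0.13 for Cd74. Without a block, 1 of 9 members differed from Ciita, H2-Oa (difference -0.73 ± 0.29 SE, limma adjusted p = 0.0345, unadjusted 0.0296). Of all 10095 other tested genes, 87.5% differed from Ciita, 0.812% with a lower change and 86.7% with a higher one, so a change above that of Ciita sets no gene apart. The H2-Oa difference was not called without CHIR99021 replicate 2 (-0.43, adjusted p = 0.122), CHIR99021 replicate 3 (-0.87, 0.0513) or DMSO replicate 1 (-0.46, 0.0948), within a range of 6.77e-05 to 0.122 over 16 settings.

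Per unit of Ciita, H2-Oa stood at 1.64, 0.859 and 1.64 in CHIR99021 libraries 1, 2 and 3, against 3.17, 1.49 and 2.23 in DMSO libraries 1, 2 and 3. These ratios overlap between groups, because replicate 2 was low in both, yet the CHIR99021 ratio was the lower in 3 of 3 replicate numbers. H2-Ab1 per unit of Ciita stood at 93.2, 63.9 and 92.3 with CHIR99021, against 68.0, 49.0 and 66.6 with DMSO, higher in 3 of 3 numbers but overlapping between groups. H2-Aa stood at 86.5, 57.6 and 87.5 with CHIR99021 and 71.9, 46.4 and 66.9 with DMSO, and it too was higher with CHIR99021 in 3 of 3 numbers.

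With the replicate number as a block, 5 of 9 members differed from Ciita in limma's test. H2-Oa fell further (difference -0.73 ± 0.10 SE, adjusted p = 6.77e-05), as 1.66% of all genes did. H2-Ab1 (0.39 ± 0.08 SE, 0.000826), H2-Aa (0.28 ± 0.08 SE, 0.00716), H2-Eb1 (0.26 ± 0.08 SE, 0.00884) and Cd74 (0.26 ± 0.09 SE, 0.0170) fell less than Ciita, on the side where 92.7% of all genes were called, of 94.4% called in either direction. The peptide-loading genes H2-DMa (-0.11, limma adjusted p = 0.665 without the block and 0.210 with it), H2-DMb1 (0.13, 0.509 and 0.206), H2-DMb2 (-0.08, 0.724 and 0.354) and H2-Ob (-0.11, 0.526 and 0.267) did not pass in either fit. A p above the threshold does not show that these genes changed as Ciita did, and the SE of these 4 differences was 0.08 to 0.10 with the block and 0.17 to 0.24 without it. With a pseudocount of 5, the difference from Ciita was 0.14 for H2-Aa, 0.26 for H2-Ab1, 0.13 for H2-Eb1 and 0.12 for Cd74. With a pseudocount of 0.1 it was 0.32, 0.43, 0.30 and 0.30 in the same order. The log2 change of Ciita itself was -0.817 with a pseudocount of 5 and -0.996 with 0.1.

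**Figure D3:**
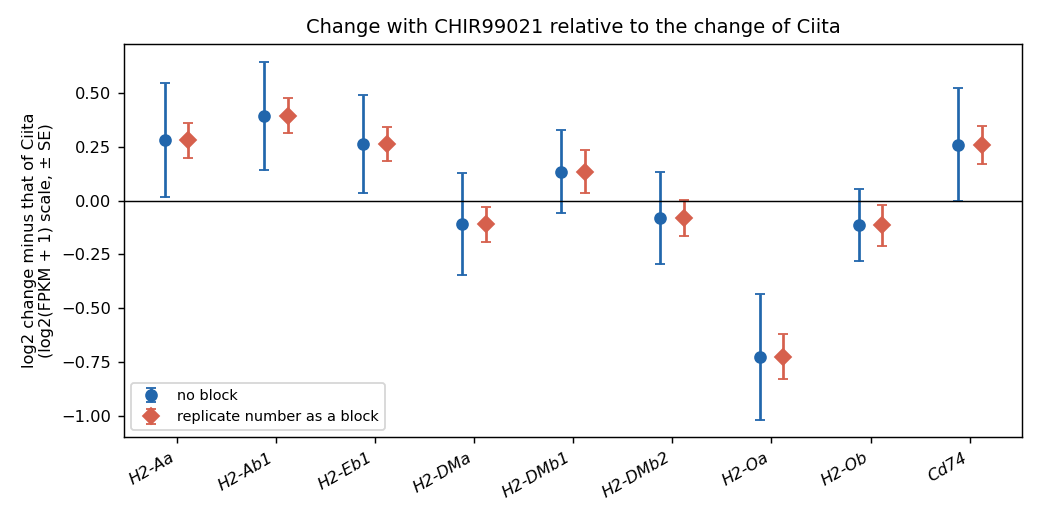
Difference between the log2 change of each member and that of Ciita (points, CHIR99021 against DMSO, with the SE as bars), without a block (circles) and with the replicate number as a block (diamonds). H2-Oa lies lowest at -0.73, the classical genes and Cd74 lie between 0.26 and 0.39, and the DM genes and H2-Ob lie between -0.11 and 0.13.

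Ratios between members of 1 library compare the RNA levels of their genes and do not measure the balance of protein chains or complexes. The 7 such ratios were compared with a two-sided exact permutation test, which cannot go below 0.10 for 3 against 3. The sum of DO over the sum of DM was 0.198, 0.174 and 0.173 in CHIR99021 libraries 1, 2 and 3, against 0.259, 0.236 and 0.216 in DMSO libraries 1, 2 and 3. This was the only 1 of the 7 ratios whose groups did not overlap (log2 difference -0.39, exact permutation p = 0.1, or 0.467 adjusted over the 7). H2-Ob over H2-Oa was 1.27, 1.69 and 1.103 with CHIR99021, against 0.649, 1.22 and 0.801 with DMSO. It was higher with CHIR99021 in 3 of 3 replicate numbers, while the groups overlapped (log2 difference 0.63, exact permutation p = 0.2, adjusted 0.467). Beta over alpha chain of I-A, H2-Ab1 over H2-Aa, was 1.08 ± 0.0272 and 1.00 ± 0.0557 in CHIR99021 and DMSO (SD, n = 3 each, exact permutation p = 0.2, adjusted 0.467). Cd74 over the sum of H2-Aa and H2-Ab1 was 0.886 ± 0.0623 and 0.935 ± 0.0266 (n = 3 each, exact permutation p = 0.3, adjusted 0.525). The ratios of H2-Eb1 to H2-Aa, H2-DMb1 to H2-DMa and H2-DMb2 to H2-DMa also overlapped between groups, with adjusted exact permutation p of 0.560 to 0.700.

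**Figure D4:**
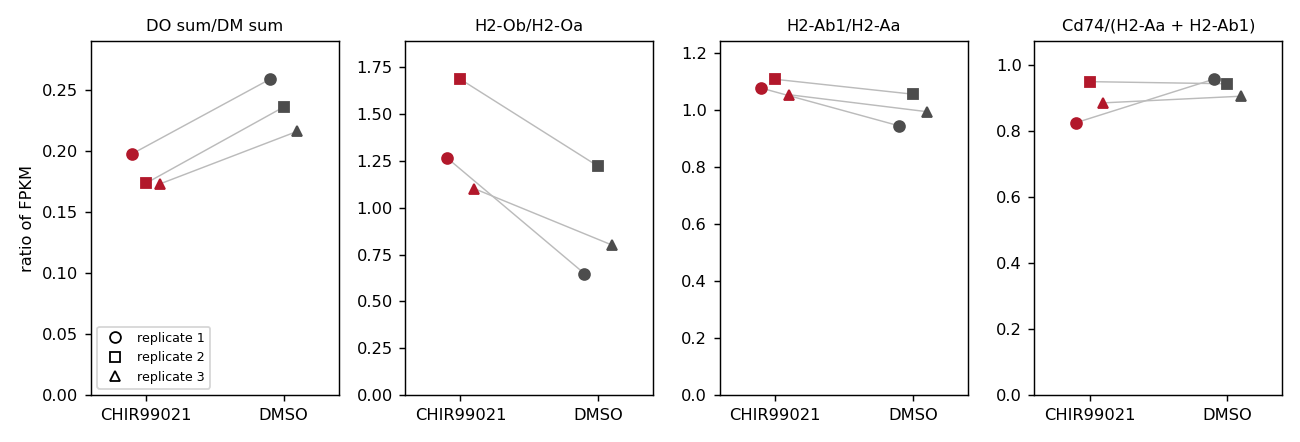
FPKM ratios between class II genes of the same library, with CHIR99021 (red) left of DMSO (grey), a symbol for each replicate and grey lines joining libraries of the same replicate number. DO over DM is lower in all 3 CHIR99021 libraries (0.173 to 0.198) than in the DMSO libraries (0.216 to 0.259), and the other 3 ratios drawn overlap between groups.

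Of 31 other genes of the class II pathway, 30 were tested, 11 fell and 4 rose, where 13.3% of all tested genes fell and 8.13% rose. With the replicate block 15 fell and 5 rose, where 24.4% of all tested genes fell and 18.4% rose. Among 7 genes of the complex that docks Ciita on promoters, only the NF-Y subunit gene Nfyc fell, with 24.2 ± 0.945 and 30.1 ± 1.78 FPKM in CHIR99021 and DMSO (n = 3 each, log2 change -0.30, limma adjusted p = 0.0408). The RFX genes Rfx5 (7.39 ± 1.89 and 11.3 ± 3.27 FPKM, limma adjusted p = 0.120) and Rfxank (4.32 ± 0.854 and 6.22 ± 1.65 FPKM, 0.170) passed only with the replicate block (0.00234 and 0.0227). Rfxap, Nfya, Nfyb and Creb1 passed in neither fit, with log2 changes of -0.16 to 0.21.

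Of 10 genes chosen as regulators of Ciita transcription, 5 fell and 3 rose, where 13.3% of all tested genes fell and 8.13% rose. Irf1 had 23.2 ± 1.53 and 42.9 ± 4.83 FPKM in CHIR99021 and DMSO (n = 3 each, log2 change -0.86, limma adjusted p = 0.00163). Spi1, which encodes PU.1 and is listed as Sfpi1, had 42.2 ± 0.825 and 64.2 ± 5.83 FPKM (-0.59, 0.00378). Pax5 (log2 change -0.92) and Irf8 (-0.84) fell as well. The genes that rose were Prdm1, whose product BLIMP1 represses Ciita in plasma cells (1.25), Irf4, whose product can activate the B cell promoter of Ciita together with PU.1 (1.398), and the histone methyltransferase gene Ezh2 (0.89). Zbtb32, which encodes a partner of BLIMP1, and the coactivator gene Crebbp did not pass in either fit.

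Of 9 genes for invariant chain cleavage and antigen processing, 3 fell and 1 rose, where 13.3% of all tested genes fell and 8.13% rose. Ctss, the cathepsin that cleaves the invariant chain in B cells, had 117 ± 6.58 and 151 ± 10.6 FPKM in CHIR99021 and DMSO (n = 3 each, log2 change -0.37, limma adjusted p = 0.0221). Ctsh had 105 ± 8.65 and 161 ± 28.8 FPKM (-0.59, 0.0209), and the reductase gene Ifi30 fell as well (-1.75). The asparaginyl protease gene Lgmn rose (0.44, 0.0423). Sppl2a, whose product cuts the last membrane fragment of Cd74, had 20.3 ± 0.448 and 23.6 ± 1.93 FPKM (limma adjusted p = 0.158). With the replicate block Ctsd, a cathepsin gene, was also called lower (limma adjusted p = 0.0432), where 24.4% of all tested genes were called lower. Of 3 genes for the turnover of surface class II, 2 fell, beside the same 13.3% of all tested genes. March1, a ubiquitin ligase that removes class II from the surface, had 4.37, 3.66 and 4.19 FPKM in CHIR99021 libraries 1, 2 and 3, against 15.03, 13.3 and 17.2 FPKM in DMSO (log2 change -1.67 ± 0.13 SE, limma adjusted p = 0.000455). Cd83, which opposes March1, fell as well (log2 change -1.17). March8 had 1.86 ± 0.305 and 0.992 ± 0.379 FPKM (limma adjusted p = 0.0887). It was called higher with the replicate block (0.0176), as were 18.4% of all tested genes.

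**Figure D5:**
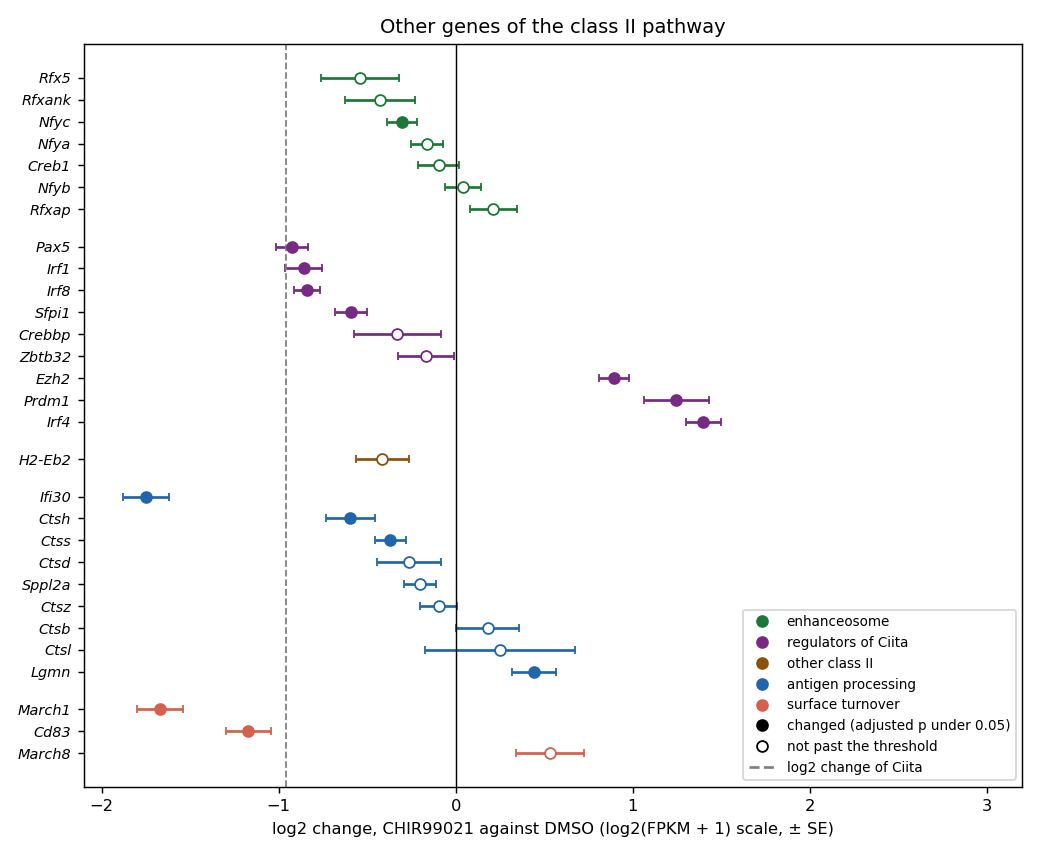
Log2 change (CHIR99021 against DMSO, log2(FPKM + 1) scale, bars are SE) of tested genes of the class II pathway that are not members, coloured by role, with filled points where limma's adjusted p was under 0.05. The dashed line marks the log2 change of Ciita (-0.96), and Ifi30, March1 and Cd83 lie to its left.

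The cells carried the B cell label in their RNA, with Cd79a at 575 ± 102 and 1216 ± 249 FPKM in CHIR99021 and DMSO (n = 3 each), and the germinal centre gene Fas at 25.2 ± 1.46 and 31.9 ± 1.67 FPKM. All 7 B cell markers fell, where 13.3% of all tested genes fell. Their median log2 change was -1.07, beside -0.89 for the class II members, and their part in the class II result was not tested. Of 12 markers of dendritic cells and macrophages, the other cells rich in class II, Cd14, Clec9a and Fcgr1 were listed at 0 in all libraries. Csf1r was at most 0.0317 FPKM with CHIR99021 and 0.0957 FPKM with DMSO, Lyz2 at most 1.86 and 2.22 FPKM, and Zbtb46 at 2.46 to 2.49 and 3.27 to 4.36 FPKM. The summed level of that list was 28.2 to 35.8 FPKM with CHIR99021 and 63.4 to 80.8 FPKM with DMSO. Of the 5 tested, Flt3, Itgam and Cd68 fell, where 13.3% of all tested genes fell. Flt3 had 15.1 ± 1.22 and 39.4 ± 4.59 FPKM in CHIR99021 and DMSO (n = 3 each, log2 change -1.32). Itgam had 1.42 ± 0.525 and 5.34 ± 0.791 FPKM (-1.41), and Cd68 had 11.5 ± 5.11 and 22.3 ± 3.57 FPKM (-0.97). Zbtb46 fell too with the replicate block (limma adjusted p = 0.0294), where 24.4% of all tested genes fell. The part of these genes in the result was not tested. Of the 5 T cell markers Cd3e was listed at 0 throughout and the summed level was at most 0.826 FPKM with CHIR99021 and 1.54 FPKM with DMSO. The feeder marker Col1a1 followed the replicate number, at 165, 65.3 and 33.3 FPKM in CHIR99021 libraries 1, 2 and 3 and 202, 69.2 and 36.2 FPKM in DMSO libraries 1, 2 and 3. The 6 feeder markers summed to 56.8 to 269 FPKM with CHIR99021 and 64.2 to 343 FPKM with DMSO, and 0 of the 5 that were tested passed without the block in limma's test (0 at an unadjusted p under 0.05). With the replicate block 3 of the 5 were called lower in limma's test, Col1a2 (adjusted p = 0.00479), Col3a1 (0.00629) and Fn1 (0.00472). In that fit 24.4% of all tested genes were called lower. The part of these feeder markers in the class II result was not tested.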

How the data were processed

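The submitters' processing notes name Cufflinks 2.2.1, TopHat2 2.1.1 and cutadapt 1.12, with mm10 as the build. No source used here states the annotation or strand setting. In each library's table the authors gave FPKM and confidence limits per gene, per the file headers, so the number of fragments is unknown and no count model was used. The summed FPKM was 556644 to 616427 in CHIR99021 libraries and 527290 to 617449 in DMSO libraries. No pair of libraries shared more than 0.228% of its values.

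Libraries were grouped by title. The 10096 of 23850 entries that averaged at least 1 FPKM were tested on log2(FPKM + 1) with limma 3.58.1 in R 4.3.3 (trend, two-sided, Benjamini-Hochberg, threshold 0.05). The fit relative to Ciita used the same steps. The fit without a block was run on simulated data with independent noise between libraries, which does not test the fit with the replicate block. Spi1 and Adgre1 were found as Sfpi1 and Emr1. FPKM is relative to the library total, so a rise of abundant genes lowers the values of others. Starts count from 1. Python 3.11.15, scipy 1.17.1 and matplotlib 3.10.9 made the ratios and figures.

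For each replicate number, the CHIR99021 and DMSO libraries deviated together from their group means (r over tested genes 0.535, 0.490 and 0.517), so the numbers were taken to pair the libraries. Members, gene lists and tests were chosen with earlier results of these data known. Named genes are the members, the listed pathway and marker genes, and the 5 genes most correlated with Ciita. Some listed genes are not reported here. BC051537 was named after its values were seen. Other pseudocounts, limits, scalings, a replicate block and leaving out each library were tried, and total-FPKM scaling was added after seeing the data.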

Additional observations from a re-analysis of the deposited data

How the results depend on the processing

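All 10 members kept a negative log2 change in each of 16 settings, from -1.90 to -0.48. Ciita, H2-Eb1, H2-DMa, H2-DMb2, H2-Oa and H2-Ob were called in all 16. The pairing by replicate number moved the count of called genes most, to 4321 with the replicate block against 2164 without it, and the members that differ from Ciita to 5 against 1. It changed no call of a member's own fall. Leaving out 1 library gave 1086 to 2033 genes, with 1086 without CHIR99021 replicate 3, 1333 without DMSO replicate 3 and 1440 without CHIR99021 replicate 2. It gave 6 to 10 members, with 6 without CHIR99021 replicate 3. Against Ciita it gave 0 to 1 members in limma's test, with 0 without CHIR99021 replicate 2 or 3 (1 at an unadjusted p under 0.05 in each) and without DMSO replicate 1 (0 unadjusted). Leaving out 1 library also turned the sign of values near 0. The difference from Ciita ran from -0.32 to 0.10 for H2-DMa, from -0.23 to 0.0907 for H2-DMb2 and from -0.23 to 0.0192 for H2-Ob. The log2 ratio of H2-Eb1 to H2-Aa ran from -0.0712 to 0.0188 and that of H2-DMb2 to H2-DMa from -0.0642 to 0.13. The cause of these changes was not tested, and with 2 libraries in a group a fit has fewer residual degrees of freedom.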

Other observations

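The genes whose log2 levels followed Ciita most closely over the 6 libraries, among 5445 other genes averaging at least 10 FPKM, were Foxp4, Arhgef2, Arhgap4, Med16 and Stxbp2 (Pearson r 0.997 to 0.999, a description over 6 libraries that share the group difference and the replicate numbers). Foxp4, a forkhead transcription factor gene, had 17.9, 19.2 and 15.8 FPKM in CHIR99021 libraries 1, 2 and 3, against 31.8, 35.8 and 31.2 FPKM in DMSO libraries 1, 2 and 3. Like Ciita, it was highest in replicate 2 of both groups. Arhgap4 had 7.79, 9.61 and 6.84 FPKM with CHIR99021, against 22.8, 26.7 and 21.9 FPKM with DMSO. The class II members followed Ciita less closely. H2-Ob ranked 240th of those 5445 genes (r = 0.956), H2-DMb2 664th (0.896) and H2-Aa 1190th (0.783). Replicate 2, the highest of its group for Ciita, was the lowest for H2-Aa, H2-Ab1, H2-Eb1, Cd74, H2-DMa, H2-DMb2 and H2-Oa in both groups.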
